A study of Mus musculus with 14 samples.

Results

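BAP1 peaks without wild-type RNF2 are the places in mouse embryonic stem cell chromatin where the deubiquitinase BAP1 was called and the Polycomb protein RNF2 was not. They were chosen by overlap of deposited peak lists. A peak of the BAP1-C91A list on chromosomes 1 to 19, X or Y was kept if it shared no base with a peak of either wild-type RNF2 library. This left 268 of 2395 BAP1 peaks, and the other 2127 overlapped wild-type RNF2. The number rests on wild-type library 2, the longer list: without it 545 peaks would qualify. The lack of wild-type RNF2 is the selection itself and not a result.

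The data are 7 chromatin immunoprecipitation sequencing (ChIP-seq) libraries, each with an input library. BAP1 was precipitated in 1 library of Bap1C91A/- cells, in which the only Bap1 allele carries the C91A change at the catalytic cysteine, and in 1 control library of BAP1 knockout cells. RNF2 was precipitated in 2 libraries of BAP1 knockout cells, 1 library of RNF2 knockout cells and 2 libraries of wild-type cells. All were C57BL/6 embryonic stem cells from blastocyst-stage embryos, and all had been kept for 4 days in 4-hydroxytamoxifen (4-OHT, 100 nM) with the caspase inhibitor emricasan (10 µM). The wild-type cells carried the same treatment. BAP1 binding was thus mapped on a protein without enzyme activity, and the Bap1C91A/- cells received an additional crosslink with disuccinimidyl glutarate that the RNF2 libraries did not. The labels do not say whether libraries of the same genotype came from separate cultures or clones. Peak lists carry no expression values, so the cell type was not checked against expressed markers.

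BAP1 is the catalytic subunit of the Polycomb repressive deubiquitinase complex, which removes ubiquitin from histone H2A. RNF2, also called RING1B, is a ubiquitin ligase of Polycomb repressive complex PRC1 and places that mark. In embryonic stem cells PRC1 is best known at CpG-rich promoters of silent developmental regulators. BAP1 is also known to associate with transcription cofactors and DNA-binding proteins, among them host cell factor HCF-1, FOXK proteins and YY1, which bind many promoters of active genes.

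The 268 peaks lay mainly at promoters, and these included promoters of genes for mitochondrial, RNA-processing and membrane traffic machinery and none of the listed developmental regulators. Their letters are shown first for 6 of these promoters, chosen to cover the highest BAP1 peaks, ETS and YY1 letters and a promoter with neither. Each is the run of 250 bases before an annotated transcript start, read 5′ to 3′ on the gene's strand (RefSeq, GRCm38.p6). Capitals mark matches to ETS (CCGGAAG), YY1 (AANATGGCG) or NFY (CCAATCA) letters on either strand.
Auh promoter, chr13:52929678-52929927, minus strand: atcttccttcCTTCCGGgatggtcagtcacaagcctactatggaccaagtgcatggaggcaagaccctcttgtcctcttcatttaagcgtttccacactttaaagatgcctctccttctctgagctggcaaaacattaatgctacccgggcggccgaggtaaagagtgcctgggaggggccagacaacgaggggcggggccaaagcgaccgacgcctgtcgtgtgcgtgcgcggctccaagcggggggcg
Ccdc28a promoter, chr10:18234982-18235231, minus strand: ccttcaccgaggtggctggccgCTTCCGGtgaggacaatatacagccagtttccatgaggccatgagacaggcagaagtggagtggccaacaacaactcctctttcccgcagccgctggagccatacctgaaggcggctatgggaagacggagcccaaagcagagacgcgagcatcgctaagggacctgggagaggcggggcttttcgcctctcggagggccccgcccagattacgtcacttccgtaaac
Snx29 promoter, chr16:11322654-11322903, plus strand: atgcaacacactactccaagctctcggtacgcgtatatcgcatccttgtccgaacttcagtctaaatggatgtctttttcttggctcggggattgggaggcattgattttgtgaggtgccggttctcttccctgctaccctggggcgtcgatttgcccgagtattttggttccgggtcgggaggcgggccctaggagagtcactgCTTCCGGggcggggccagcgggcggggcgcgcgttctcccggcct
Fiz1 promoter, chr7:5014729-5014978, minus strand: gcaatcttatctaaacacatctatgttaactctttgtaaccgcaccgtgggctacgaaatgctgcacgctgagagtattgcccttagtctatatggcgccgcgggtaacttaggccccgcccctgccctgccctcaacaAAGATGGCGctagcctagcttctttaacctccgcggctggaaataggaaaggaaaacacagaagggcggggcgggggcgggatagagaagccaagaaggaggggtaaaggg
Zfp882 promoter, chr8:71908356-71908605, plus strand: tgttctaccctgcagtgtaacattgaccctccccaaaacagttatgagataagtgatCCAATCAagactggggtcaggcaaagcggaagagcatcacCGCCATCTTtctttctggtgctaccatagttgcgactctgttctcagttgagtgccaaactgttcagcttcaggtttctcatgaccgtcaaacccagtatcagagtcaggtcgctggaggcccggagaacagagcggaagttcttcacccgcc
H1f10 promoter, chr6:87981483-87981732, minus strand: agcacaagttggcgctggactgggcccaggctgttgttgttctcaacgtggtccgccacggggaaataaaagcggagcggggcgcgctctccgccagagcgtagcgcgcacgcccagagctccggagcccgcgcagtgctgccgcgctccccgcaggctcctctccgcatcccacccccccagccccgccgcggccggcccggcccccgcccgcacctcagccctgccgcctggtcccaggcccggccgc

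Auh encodes a mitochondrial enzyme of leucine breakdown that also binds RNA. Snx29 belongs to the sorting nexins, which act in membrane traffic. Fiz1 and Zfp882 encode zinc finger proteins, and H1f10 encodes a linker histone variant. The BAP1 peak covered all 250 bases before Ccdc28a and before Snx29, 169 before Auh, 165 before Zfp882, 161 before H1f10 and 72 before Fiz1. The H1f10 stretch was the most GC-rich of the 6, at 75.2% GC, and held none of the 3 motifs put in capitals.

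In peak strength the 268 peaks resembled the other BAP1 peaks. Fold enrichment is the authors' value, the summit's read pileup over the input-based local background. Its median was 3.40 at the 268 peaks (quartiles 3.15 and 3.81, lowest 2.43, highest 5.75) and 3.47 at the other BAP1 peaks (quartiles 3.22 and 3.83, lowest 2.29, highest 6.598). The authors' −log10 q had a median of 3.07 at the 268 peaks and 3.20 at the other BAP1 peaks. Width was 112.5 bp at the median and 668 bp at most for the 268 peaks, and 121 bp and 3062 bp for the other BAP1 peaks. These were narrow calls at modest enrichment, made from 1 library with no replicate, so no test of strength was possible. The 268 peaks held 4 of the 26 strongest BAP1 peaks (25 with a tie) and 57 of the 517 strongest (500 with ties).

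The peaks without wild-type RNF2 mostly stood alone. Joined over gaps of up to 1 kb they formed 223 loci, of which 184 (82.5%, 95% Wilson interval 77.0 to 86.9) held a single peak, and no locus held more than 3. The other BAP1 peaks formed 922 loci, of which 456 (49.5%, 46.2 to 52.7) held a single peak, and the densest held 23. These and all following intervals cover counting error only and treat peaks or genes as independent, which neighbouring peaks are not.

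At the BAP1 knockout control, 0 of the 268 peaks overlapped a control peak. The same was true of 0 of the other 2127 BAP1 peaks. The BAP1-C91A list has 2395 peaks from 415 M tags, against 144 peaks from 32.5 M tags in the control. The library in which the peaks were called was therefore far deeper than its control.

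Promoter position was more frequent at these peaks than over the rest of the BAP1 list. A peak was counted at a gene end when it touched the 1 kb on either side of either end of a protein-coding gene in the RefSeq table. This held for 223 of the 268 peaks (83.2%, 78.3 to 87.2) and for 1001 of the other 2127 (47.1%, 44.9 to 49.2). Of the 545 BAP1 peaks with no RNF2 peak in wild-type library 1, which include the 268, 84.2% lay at a gene end. A high share was thus not particular to the 268. Summits lay within 1 kb of an annotated transcript start for 206 of the 260 peaks on chromosomes with start positions (79.2%, 73.9 to 83.7), and for 729 of 2091 other BAP1 peaks (34.9%, 32.9 to 36.9). Among those 206 the median summit sat 20.5 bp downstream of the start, with quartiles at -86.75 and 160.8 bp. Among the 729 other summits the median was 146 bp downstream, with quartiles at -95.0 and 470.0 bp, negative values being upstream. The other BAP1 peaks are clustered, so their intervals are too narrow and were not used as a test. Counted by locus, 171 of 223 loci of the 268 peaks and 436 of 922 other loci lay within 1 kb of a start. Both totals include loci on chromosome 18, which has no start positions. On the other chromosomes some genes also lack a start position, and 17492 of the 21779 protein-coding genes had a known start. A peak at a gene without a start position was measured to another gene, as at Slu7, where the nearest known start was that of Pttg1. The shares within 1 kb of a start can therefore be too low in both groups.

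**Figure D1:**
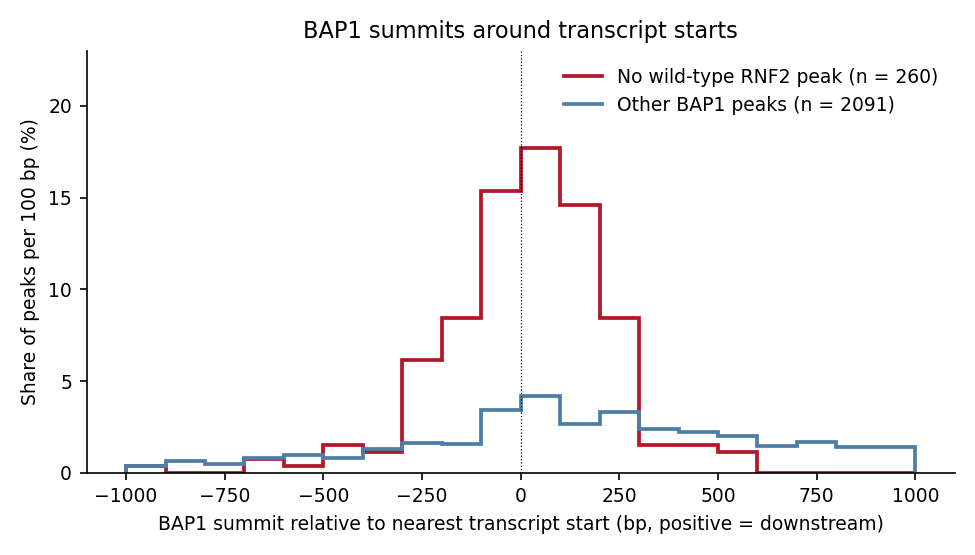
Position of BAP1 summits relative to the nearest annotated transcript start, in 100 bp steps (x axis, bp) against the share of peaks in each step (y axis, %), for the 260 peaks without wild-type RNF2 (red) and 2091 other BAP1 peaks (blue) on chromosomes with start positions. The red line is concentrated around the start, where 79.2% of summits lie within 1 kb, and the blue line is low and extends downstream.

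The 268 peaks touched the ends of 253 protein-coding genes, 1.16% of the 21779 in the table. The other BAP1 peaks touched 588 genes (2.70%), and 27 genes were touched by both. Of the 253 genes, only 141 had no wild-type RNF2 peak at either end. A gene named below can thus have wild-type RNF2 beside its BAP1 peak, as H1f10 does at 48 bp. The gene lists that follow were assembled with earlier results of these data known, so their counts are descriptions and carry no test.

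Genes that build the mitochondrial energy and translation machinery were among those reached. Across 4 lists for the respiratory chain, the mitochondrial ribosome and mitochondrial protein import, 23 of 229 genes (10.0%) had one of the 268 peaks at an end and 3 had another BAP1 peak, against 1.16% and 2.70% of all genes. Complex I, which feeds electrons from NADH into the respiratory chain, had 6 of 49 genes (12.2%), all without another BAP1 peak. These were the subunit genes Ndufb5 (BAP1 fold enrichment 4.06), Ndufc1 (3.91), Ndufa12 (3.53) and Ndufs7 (3.42), and the assembly factors Ndufaf5 (3.68) and Ndufaf1 (3.53). Other respiratory chain genes counted 5 of 72 (6.94%). Uqcrh (3.68) and Cyc1 (3.04) encode complex III subunits, Uqcc1 (3.30) a complex III assembly factor, Coa5 (3.62) a cytochrome oxidase assembly factor and Sdhb (3.14) the iron-sulfur subunit of succinate dehydrogenase. The mitochondrial ribosome had 11 of 78 genes (14.1%) at these peaks and 3 at other BAP1 peaks, led by Mrps28 (4.18), Mrps17 (4.06), Mrpl47 (4.06) and Mrpl40 (3.91). The import list had Timm29 (4.20), an inner membrane translocase subunit, as 1 of 30. Ndufb5 and Mrpl47, whose starts lie 308 bp apart and point away from each other, had 2 of the 268 peaks in common, at 4.06 and 2.78.

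RNA processing and transcription machinery formed another group. Of 83 splicing factor genes, 5 (6.02%) had one of the 268 peaks and 2 had another BAP1 peak. They were Slu7 (5.75), which acts at the second catalytic step of splicing, the helicase gene Dhx38 (4.06), the core snRNP gene Snrpd3 (3.91), Prpf18 (3.84) and Cwc15 (3.37). Of 106 genes for RNA polymerases, general factors and Mediator, 5 (4.72%) had one of these peaks and 4 another BAP1 peak. Taf8 (4.45) encodes a TFIID subunit, Med27 (3.68), Med8 (3.25) and Med24 (3.12) Mediator subunits, and Gtf3c5 (3.25) a subunit of the RNA polymerase III factor TFIIIC. Supt4a, which encodes a subunit of the elongation factor DSIF, carried 2 of the 25 strongest peaks (4.43 and 4.30). Supt5, chosen here after its values were seen, encodes the partner subunit and had a peak of 3.25.

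Membrane traffic, protein turnover and zinc finger genes were also reached. The vesicle transport list had 9 of 209 genes (4.31%) at these peaks and 4 at other BAP1 peaks. Vps26b (5.29) encodes a retromer subunit, Snx29 (4.91) a sorting nexin, and Vps51 (4.45) and Vps52 (3.83) tethering subunits of GARP. Autophagy genes counted 3 of 54 (5.56%), namely Atg12 (3.77), Atg13 (3.12) and Atg2b (2.84). Proteasome genes counted 2 of 51, Psmc5 (3.84) and Psmb5 (3.53), and 2 others of that list had another BAP1 peak. The mouse Zfp zinc finger genes counted 10 of 397 (2.52%) and 8 (2.02%) at other BAP1 peaks, led by Zfp646 and Zfp668 under a shared peak of 4.73. The remaining lists had 1 or 2 genes each, which is too few to set them apart from the 1.16% of all genes. Cytosolic ribosome genes counted 2 of 83 (2.41%), Rps18 (3.83) and Rplp2 (3.30), and 0 at other BAP1 peaks. Aminoacyl-tRNA synthetases counted 1 of 37 (2.70%), the mitochondrial leucyl-tRNA synthetase Lars2 (2.87), and 3 (8.11%) at other BAP1 peaks. Translation factors counted 1 of 73 (1.37%), Eif2b2 (3.14), and 3 (4.11%) at other BAP1 peaks. Replication had 1 of 44 genes (2.27%), the helicase subunit gene Mcm4 (3.10), and 0 at other BAP1 peaks. DNA repair had 1 of 66 (1.52%), the TFIIH helicase gene Ercc3 (4.14), and 3 (4.55%) at other BAP1 peaks. Mitosis had 2 of 80 (2.5%), the kinetochore genes Cenpn (3.36) and Cenph (3.30), and 2 at other BAP1 peaks. Chaperones had 2 of 87 (2.30%), the chaperonin genes Cct7 and Tcp1 (both 3.17), and 1 at other BAP1 peaks. Histones had 1 of 102 (0.98%), H1f10 (5.22), and 0 at other BAP1 peaks.

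The Hox genes and the listed developmental regulators were at 0 in this set, and developmental genes outside these lists were not counted. None of 39 Hox genes and none of 51 other developmental regulators had one of the 268 peaks, against 33 (84.6%) and 42 (82.4%) at the other BAP1 peaks. The same was so for Polycomb subunit genes (0 of 34, against 7), trophoblast genes (0 of 14, against 5) and primitive endoderm genes (0 of 14, against 4). The BAP1 peaks at those genes overlapped wild-type RNF2, which places them outside the 268 by the rule itself. Germline, pluripotency, intrinsic apoptosis, fibroblast and olfactory receptor lists and the list of BAP1 partners had 0 genes at either kind of peak.

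**Figure D2:**
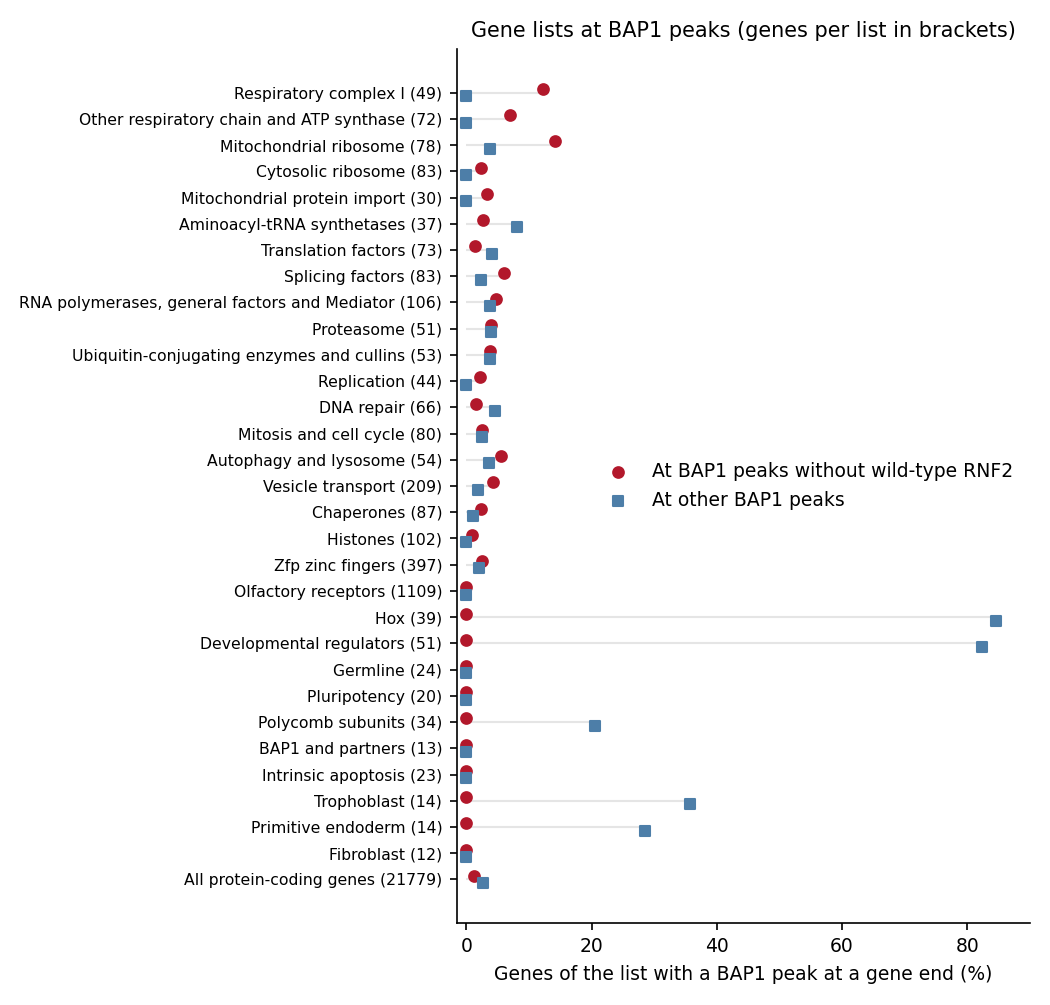
Share of the genes of each list with a BAP1 peak at a gene end (x axis, %), for peaks without wild-type RNF2 (red circles) and other BAP1 peaks (blue squares), with all protein-coding genes in the last row. Red points are farthest right for the mitochondrial ribosome (14.1%) and complex I (12.2%), and blue points for Hox genes (84.6%) and developmental regulators (82.4%).

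The strongest individual peaks lay in the same kinds of place. The highest values, 5.75 each, were at Auh (chr13:52929190-52929846) and near Slu7 (chr11:43433682-43434152). Ccdc28a (chr10:18234706-18235330) had 5.60. The next peak, 5.29, spanned the shared promoter of Ncapd3, a condensin II subunit gene, and Vps26b (chr9:27030141-27030603). Abcb8, a mitochondrial transporter gene, and H1f10 each had 5.22. Syf2 (4.91) encodes a splicing factor, Tmem101 (4.68) a membrane protein, and Mrrf (4.53), which shares its peak with Rbm18, the mitochondrial ribosome recycling factor. Fam114a2 and Mfap3 shared a peak of 4.45, Tmem262 and Vps51 another of 4.45, Fbxo38 and Spink10 one of 4.53, and Cir1 and Scrn3 one of 4.28. Wdr45 (4.37) acts in autophagy, Pef1 (4.30) binds calcium, and Gosr2 (4.22) is a Golgi SNARE. At 4.22, tied with Gosr2, stood Antkmt, a lysine methyltransferase of the mitochondrial ADP/ATP carrier, and the pair Pfkm, muscle phosphofructokinase, and Senp1, a SUMO protease. Of the 25 strongest, 4 touched no outer gene end. These were at -12350 bp from the start of Igsf21 (5.11), far from any start on chromosome 12 (4.65), and at internal starts of Tnrc6a (4.65) and Pidd1 (4.30).

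Many of these promoters faced another gene. A gene was called head to head when a start on the other strand lay within 1 kb upstream and the 2 genes were transcribed away from each other. This was so for 70 of the 207 genes at these peaks with start positions (33.8%, 27.7 to 40.5), for 51 of 417 genes at other BAP1 peaks only (12.2%, 9.43 to 15.7) and for 1483 of all 17492 genes with start positions (8.48%, 8.07 to 8.90). A peak in a shared promoter touches both genes, which raises a count made by gene. Counted by locus, with the nearest gene alone, 36 of 171 loci within 1 kb of a start (21.1%, 15.6 to 27.8) were head to head, against 32 of 436 loci of other BAP1 peaks (7.34%, 5.25 to 10.2). Pairs included Rps18 with Vps52, Esf1 with Ndufaf5 at 88 bp, Cops2 with Galk2 at 27 bp, Coa5 with Unc50 at 36 bp and Ftsj3 with Psmc5 at 101 bp.

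Base composition and short motifs were read in the RefSeq promoter windows (250 bases before to 50 after a start) that the peaks overlap, with 1 window per gene. The 160 windows under the 268 peaks had a median of 60.3% GC and 7.00 CpG per 100 bases. The 260 windows under other BAP1 peaks had 65.0% and 8.67, and all 17492 windows had 56.3% and 4.33. Windows under the 268 peaks thus lay between windows under the other BAP1 peaks and all windows in GC and CpG content. A window can reach past its BAP1 peak, and of 169 windows under the 268 peaks, all windows per gene counted, 142 held no wild-type RNF2 peak.

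YY1 and ETS letters were more frequent in these windows than in the other promoter groups. YY1 letters (AANATGGCG, both strands) were in 34 of 160 windows (21.2%, 15.6 to 28.2), against 11 of 260 under other BAP1 peaks (4.23%) and 3.30% of all windows. ETS letters (CCGGAAG, both strands) were in 75 of 160 (46.9%, 39.3 to 54.6), against 22.7% under other BAP1 peaks and 11.9% of all windows. Both kinds occurred together in 11 of 160 windows (6.88%), in 1.15% of windows under other BAP1 peaks and in 0.703% of all windows, and 62 of the 160 (38.8%) had neither. Wherever a window had no wild-type RNF2 peak but one in the BAP1 knockout library 2, YY1 letters occurred in 5.53% and ETS letters in 20.9% of 2042 windows, with a median of 6.00 CpG per 100 bases, and those windows include the ones under the 268 peaks. FOXK letters (TGTTTAC) were in 8.75% of the 160 windows (5.28 to 14.2), 5.00% of windows under other BAP1 peaks (2.94 to 8.37) and 2.94% of all. The intervals of the 160 windows and of the windows under other BAP1 peaks overlap for these letters. E-box letters (CACGTG) ran the other way, at 2.5%, 15% and 7.90%, as did TATA letters (TATAAA), at 3.12%, 7.31% and 13.3%. Shares lay closer together for NRF1 letters (GCATGCGC), at 6.88%, 5.00% and 3.61%, and CRE letters (TGACGTCA), at 6.25%, 3.46% and 2.34%. CTCF letters (AGNNGGCGC) were in 16.2%, 13.1% and 9.28%, and NFY letters (CCAATCA) in 5.00%, 5.38% and 9.56%. BANP (CTCGCGAGA) and ZNF143/THAP11 (CTACAANTC) letters were in at most 2.5% of any of the 3 groups. SP/KLF letters (GGGCGG), common in CpG-rich promoters, were in 59.4%, 66.9% and 46.3%. A match shows that the letters are present and does not show that a protein was bound, and the part of base composition in these shares was not tested.

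**Figure D3:**
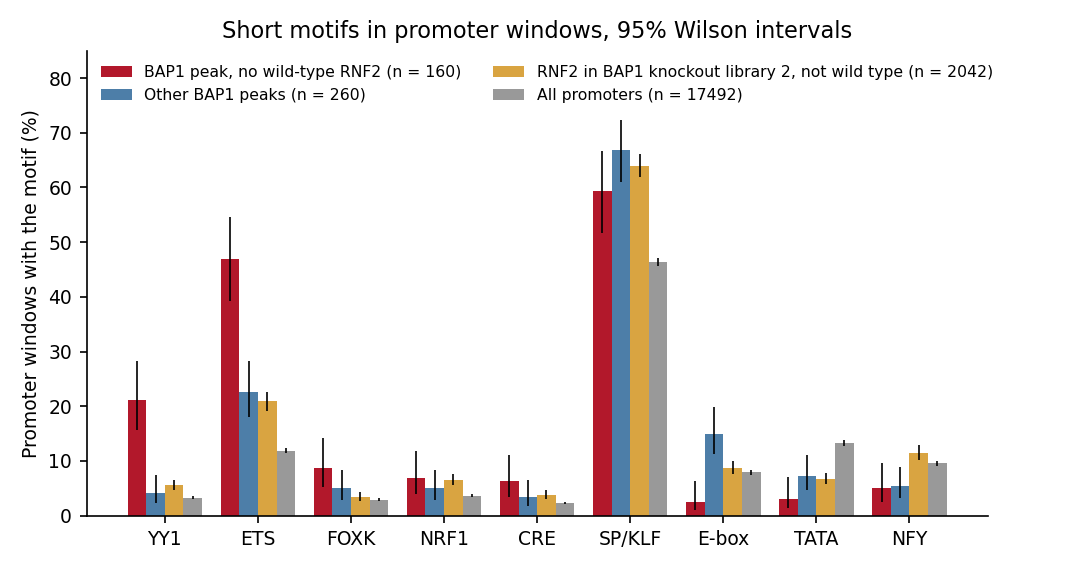
Share of promoter windows holding each short motif on either strand (y axis, %; bars start at 0, lines are 95% Wilson intervals), for windows under BAP1 peaks without wild-type RNF2 (red), under other BAP1 peaks (blue), with RNF2 in BAP1 knockout library 2 and none in wild type (yellow) and all windows (grey). The red bar is the tallest of the 4 for YY1 (21.2%), ETS (46.9%), FOXK (8.75%), NRF1 (6.88%) and CRE (6.25%). It is the shortest for E-box (2.5%), TATA (3.12%) and NFY (5.00%). Among the motifs named here, the red and blue intervals overlap for FOXK, NRF1, CRE, TATA and NFY.

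The YY1 letters lay close to the transcript start and mostly in the gene's own direction. The 34 windows held 36 matches at 32 distinct positions, since windows of facing genes can share a match. Their median offset was 10.0 bases downstream of the start, and 29 of 36 (80.6%) read on the gene's strand. A BAP1 peak covered 26 of the 36 (72.2%), while 37.9% of the bases in these windows were under a peak. The ETS letters had 100 matches at 92 positions with a median offset of 44.0 bases upstream, 54 of them overlapped by a peak, and 49 on the gene's strand. Sites with YY1 letters at 8 genes follow, on the gene's strand with the matching letters in capitals, to show the bases around the letters searched for (RefSeq, GRCm38.p6). Each includes up to 10 bases on either side.
Auh site, chr13:52929628-52929654, minus strand: gtaaacatacAACATGGCGgcggcggc
Rexo1 site, chr10:80561519-80561547, minus strand: gcctcggggcAAGATGGCGgcgtcggcgg
Tsc1 site, chr2:28641244-28641272, plus strand: ctgcgcgtccAAGATGGCGgcgccctgta
Mrps18a site, chr17:46111005-46111033, plus strand: ggtgcgttccAAGATGGCGgccctcaggg
Ndufs7 site, chr10:80249463-80249491, plus strand: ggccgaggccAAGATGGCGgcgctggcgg
Med27 site, chr2:29346832-29346859, plus strand: tgacagctgcAACATGGCGgacgtgctg
Psmc5 site, chr11:106256178-106256206, plus strand: cgagagagggAAGATGGCGcttgatgggc
Lars2 site, chr9:123366937-123366965, plus strand: ttgttttgccAACATGGCGgcgcccagag

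These 8 were chosen after their matches were seen, for their span of functions. Rexo1 encodes an RNA exonuclease, Tsc1 a growth inhibitor upstream of mTORC1, and Mrps18a, Ndufs7, Med27, Psmc5 and Lars2 stand for the mitochondrial ribosome, complex I, Mediator, the proteasome and mitochondrial tRNA charging. A BAP1 peak overlapped all 8 matches. All 8 also lay downstream of the start on the gene's strand, which was not so for all 36 matches. The match centre lay 27 bases downstream of the start at Rexo1, 25 at Tsc1, 15 at Mrps18a and 24 at Lars2.

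RNF2 at the 268 peaks was then read in the BAP1 knockout libraries, which the selection did not use. Library 1 had an RNF2 peak at 4 of the 268 (1.49%, 0.582 to 3.77) and library 2 at 124 (46.3%, 40.4 to 52.2). The 4 peaks of library 1 were all among the 124 of library 2, and 144 peaks (53.7%) had RNF2 in neither. The RNF2 list of RNF2 knockout cells holds 0 peaks. The libraries differ in depth and yield, with 54.1 M tags and 7946 peaks in library 1 and 139 M and 39872 in library 2, against 58.4 M and 4038 and 149 M and 28770 in wild-type libraries 1 and 2. The knockout count therefore rests on library 2. With every RNF2 list shortened to its 4038 strongest peaks, 532 BAP1 peaks had no wild-type RNF2 and library 2 had RNF2 at 15 of them (2.82%).

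The rule used the wild-type lists, so part of any gain is built in, and the same count over all genes is its background. Of the 253 genes, 141 had no wild-type RNF2 peak at either end, and library 2 had RNF2 at an end of 93 of them (66.0%, 57.8 to 73.3). Over all protein-coding genes with no wild-type RNF2 peak at an end the share was 19.1% (2107 of 11035). In library 1 the counts were 0 of 141, against 0.344% (38 of 11035). By promoter window, 75 of 142 windows under these peaks with no wild-type peak had RNF2 in library 2 (52.8%, 44.6 to 60.8), against 19.0% (2463 of 12997) of all windows with none. Nothing is read from the gap to these backgrounds, since the absence of wild-type RNF2 chose the peaks and the windows under them are richer in CpG than the average. Among windows with no wild-type RNF2, those with RNF2 in library 2 had a median of 6.00 CpG per 100 bases, against 1.67 for all of them. The part of CpG content and of depth in the knockout counts was not tested.

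The opposite change was rarer over the whole BAP1 list. In the second pair of libraries, 124 of 2395 BAP1 peaks (5.18%) had RNF2 in the BAP1 knockout and not in wild type. These are the 124 counted above. In the same pair 19 (0.793%) had it in wild type and not in the knockout. In the first pair the counts were 64 (2.67%) and 4 (0.167%). Over all genes they were 2107 (9.67%) and 288 (1.32%) in the second pair and 2718 (12.5%) and 76 (0.349%) in the first. The same direction was thus seen over all genes. The sizes of these shares cannot be compared between BAP1 peaks and genes. Of the 2395 BAP1 peaks, 2127 already overlapped wild-type RNF2 in the second pair and could not be counted as a gain. Of the 21779 genes, 11035 had no wild-type RNF2 peak at an end, and the gene end windows are wider than most BAP1 peaks. The knockout list was the longer one in both pairs, at 39872 against 28770 and 7946 against 4038 peaks, and its part in these counts was not tested. With 2 libraries a genotype no permutation of labels can reach significance, and none was tried.

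The widest and strongest knockout RNF2 peaks at these sites also covered wild-type RNF2 nearby. At 37 of the 124 BAP1 peaks with library 2 RNF2 (29.8%, 22.5 to 38.4), the RNF2 peak also overlapped a wild-type RNF2 peak next to the BAP1 peak. Counted once for each BAP1 peak, so that an RNF2 peak over 2 of them counts for both, RNF2 at the 37 had a median fold enrichment of 4.51 and a median width of 1127 bp. At the other 87 the medians were 2.995 and 278 bp, and all library 2 peaks of the genome had 3.40 and 327 bp. The median BAP1 fold enrichment was 3.23 at the 37, 3.604 at the 87 and 3.38 at the 144 with no library 2 peak.

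**Figure D4:**
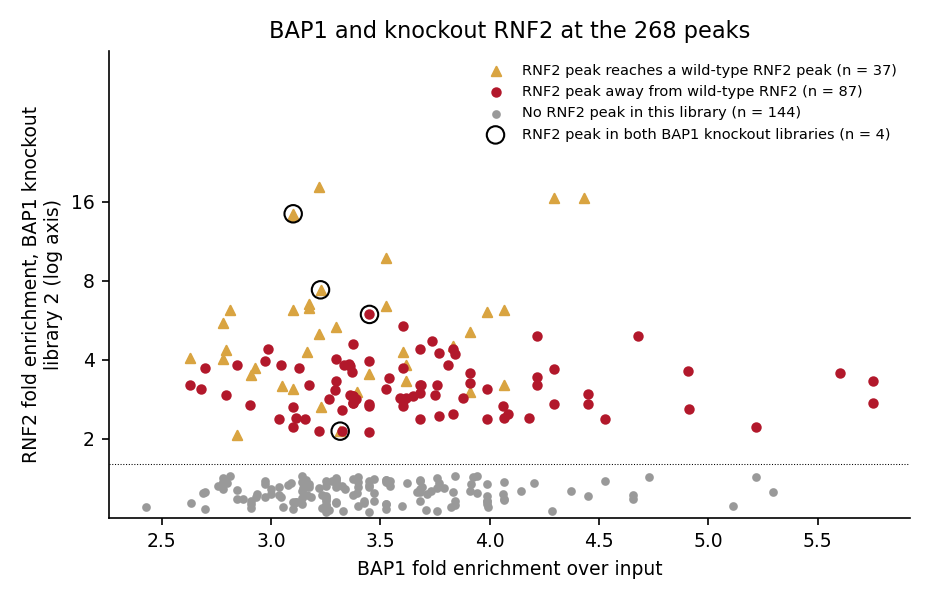
BAP1 fold enrichment (x axis) against RNF2 fold enrichment in BAP1 knockout library 2 (y axis, log scale) at each of the 268 peaks, with the 144 that had no RNF2 peak spread in the strip under the dotted line. The values above 8 all belong to RNF2 peaks that reach a wild-type RNF2 peak (yellow triangles), and the 4 circled peaks had RNF2 in both knockout libraries.

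All 4 peaks with RNF2 in both knockout libraries can be named. At Cnot11, a subunit gene of the CCR4-NOT deadenylase, RNF2 fold enrichment was 2.29 in knockout library 1 and 7.38 in library 2 (BAP1 3.23), and wild-type RNF2 began 19 bp away. At Brpf1, a scaffold gene of the MOZ acetyltransferase complex, it was 2.29 and 2.14 (BAP1 3.32), with wild-type RNF2 at 66 bp. At Crebl2, a bZIP factor gene, it was 2.69 and 14.4 (BAP1 3.10), with wild-type RNF2 at 201 bp. The remaining peak (chr10:81606433-81606620) lay at -5640 bp from the start of Tle6 and 18320 bp from wild-type RNF2, with 3.77 in library 1 and 5.95 in library 2 (BAP1 3.45).

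Among peaks with RNF2 in library 2 alone, the highest RNF2 values adjoined wild-type RNF2. The peak shared by Mrpl34 and Abhd8 had 18.1 under an RNF2 peak of 5626 bp, with wild-type RNF2 at 89 bp. Both Supt4a peaks lay under an RNF2 peak of 4333 bp with 16.5, at 26 and 205 bp from wild-type RNF2. A peak at -4435 bp from the start of Ctdsp1 had 14.1, Tcf4 9.74, the shared promoter of Cct7 and Pradc1 6.51, Sptlc1, a serine palmitoyltransferase subunit gene, 6.42, and Slc27a1, a fatty acid transporter gene, 6.30. Mtx1, a mitochondrial outer membrane import gene, had 6.19, and the 2 peaks at Asb8 had 6.18 under the same RNF2 peak. All 11 of these peaks (10 with a tie) lay within 392 bp of a wild-type RNF2 peak. Where library 2 RNF2 stood apart from wild-type RNF2, the highest value after that upstream of Tle6 was 5.39 at chr9:78175963-78176012, at no gene end and 62296 bp from wild-type RNF2. Tmem101 had 4.93 and Antkmt 4.91, with wild-type RNF2 at 7858 and 3838 bp.

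Library 2 had RNF2 at peaks of 136 of all 253 genes. The mitochondrial ribosome had it at 8 of 11 genes, from 2.39 at Mrps28 to 18.1 at Mrpl34, and vesicle transport at 5 of 9. Complex I had it at 2 of 6, Ndufaf5 (4.41) and Ndufaf1 (3.11), the splicing list at 2 of 5, Snrpd3 (3.56) and Slu7 (3.33), and the Zfp list at 3 of 10. With so few genes a list these counts do not separate the groups.

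Distance to wild-type RNF2 was part of the selection and is given as a description. The median was 11160 bp (quartiles 212.5 and 32800 bp). The nearest peak inside the rule, at Thg1l, adjoined a wild-type peak with a gap of 0 bp, followed by Tcp1 at 2 bp and Zfp868 at 6 bp. Just outside the rule were peaks at Gmcl1, with 3 bp covered by wild-type RNF2, at Wdr45b with 7 bp, and at Banf1 and Eif1ad with 10 bp. For 267 of the 268 the nearest wild-type peak came from library 2. The share with RNF2 in knockout library 2 was 72.2% (26 of 36, 56.0 to 84.2) under 100 bp, 54.0% (27 of 50) from 100 bp to 1 kb, 44.2% (19 of 43) from 1 to 10 kb, 38.8% (50 of 129) from 10 to 100 kb and 20.0% (2 of 10, 5.67 to 51.0) beyond. Under 1 kb it was 61.6% (51.1 to 71.2) and from 1 kb on 39% (32.2 to 46.3). The share at gene ends did not follow that order, at 84.9% under 1 kb and 82.4% from 1 kb on.

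**Figure D5:**
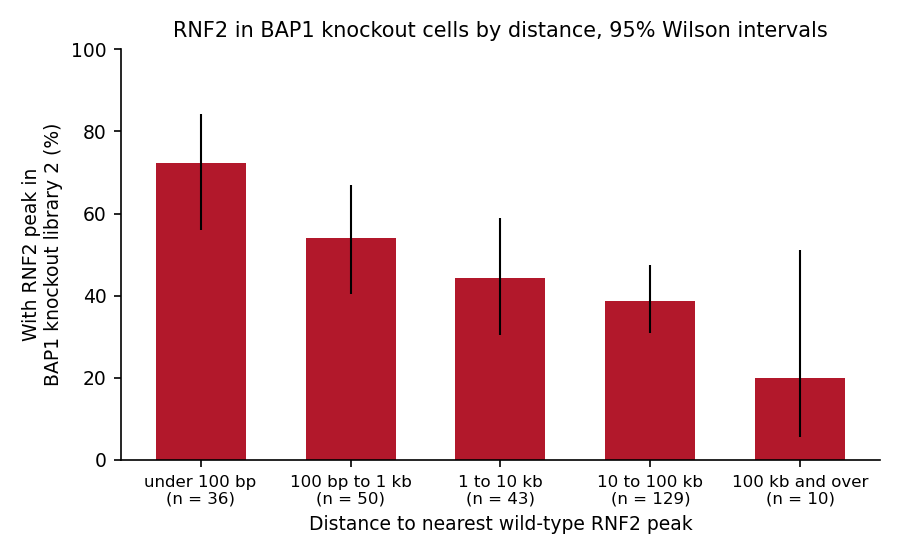
Share of the peaks with an RNF2 peak in BAP1 knockout library 2 (y axis, %; lines are 95% Wilson intervals) by distance to the nearest wild-type RNF2 peak (x axis, number of peaks in brackets). The bars step down from 72.2% under 100 bp to 38.8% at 10 to 100 kb, and the last bar rests on 10 peaks.

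The shares of YY1 and ETS letters were close at peaks with and without RNF2 in knockout library 2. YY1 letters were in 19 of 88 windows with it (21.6%, 14.3 to 31.3) and in 15 of 72 without (20.8%, 13.1 to 31.6). ETS letters were in 40 of 88 (45.5%, 35.5 to 55.8) and in 35 of 72 (48.6%, 37.4 to 59.9). Both pairs of intervals overlap almost fully, and smaller differences are not detectable with this many windows. NRF1 letters were in 4.55% of windows with it and 9.72% without, and NFY letters in 3.41% and 6.94%. Median GC was 61.5% in windows with it and 58.0% without, and median CpG 7.33 and 6.5 per 100 bases.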

How the data were processed

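ChIP-seq reads were 50 bp single end. Reads were aligned with GSNAP to GRCm38 and peaks called with MACS2, per the submitters' processing notes. Each deposited list was called per library against its own input with MACS2 2.1.0.20150420 or 2.1.1.20160309 at a q cutoff of 0.05, per the file headers, which also give a fragment length of 50 bp for BAP1-C91A and 100 to 323 bp for the others. The authors' pileup is a signal, their −log10 p and q values come from MACS2, and their fold enrichment is a ratio to local background. These values were used as deposited.

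Overlap meant at least 1 shared bp. Gene ends came from 21779 RefSeq protein-coding genes on GRCm38.p6, after removing 108 entries in the gap at the start of the non-Y chromosomes. Promoter windows came from RefSeq, were kept by gene identifier and were counted by symbol. They were present for 207 of the 253 genes. Chromosome 18 was not analysed for starts or sequence, and some genes on other chromosomes, such as Slu7 and Abcb8, also had no window. Python 3.11.15, pandas 2.3.3, numpy 2.4.6, scipy 1.17.1 and matplotlib 3.10.9 were used, and the overlap, interval and motif steps were tested on simulated data. No test was run, because BAP1 has 1 library. Intervals are Wilson at 95%. Precision is limited by depth, 32.5 to 415 M tags a library.

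Genes were named by a rule: those at the 25 strongest peaks, at peaks with RNF2 in both knockout libraries, at the 10 strongest with RNF2 in library 2 alone, up to 4 per list (more where a list had few), and the nearest 3 inside and outside the overlap rule. The peaks and the gene lists were chosen with earlier results of these data known. Alternatives changed the overlap, the q threshold, the list length and the libraries left out. The result for 1 gene list is not reported here.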

Additional observations from a re-analysis of the deposited data

How the results depend on the processing

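Of 56 alternative values, 34 stayed within 1.5 times of the reported one. The number of BAP1 peaks without wild-type RNF2 depends on wild-type library 2: it was 268 with all libraries, 268 to 545 when a wild-type library was left out, 532 with RNF2 lists shortened to the 4038 strongest, and 48 at a BAP1 −log10 q of at least 5. Peaks with RNF2 in knockout library 1 numbered 4, against 1 when RNF2 within 1 kb counted as overlap, 7 with at least 50% of the peak covered, 0 at that q, and 4 to 64 with a library left out. Those with RNF2 in both knockout libraries numbered 4, against 1, 7 and 0 under the same settings and 4 to 124 with a library left out. For knockout library 2 the count was 124, against 26 at that q, 15 with shortened lists and 124 to 382 with a library left out. Peaks at gene ends numbered 223, against 40, 447 and 223 to 459. Genes numbered 253, against 57, 470 and 253 to 481, and 156 with the 1 kb overlap. The cause was not tested, beyond the smaller or larger set each setting leaves. Across the settings that change the set of peaks, the share at gene ends ran from 82.4 to 84.2%, while the share with knockout library 2 RNF2 ran from 2.82% with shortened lists to 70.1% without wild-type library 2. With the gene window changed, 233 peaks lay within 2.5 kb of a gene end and 252 in a gene or its 1 kb flanks, and 206 had a summit within 1 kb of a start. No paired analysis was possible because no result comes from a test; counts within each pair of RNF2 libraries are given as descriptions.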

Other observations

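The 268 peaks were not spread evenly over the chromosomes. Among chromosomes with more than 30 other BAP1 peaks, they made up 20.5% of BAP1 peaks on chromosome 16 (8 peaks) and 19.2% on 7 (20). They made up 18.8% on 9 (22), 18.5% on 8 (31) and 18.2% on 18 (8), and 2.86% on 13 (4). Some of these counts are small, and the other BAP1 peaks in the totals are clustered. The median local background pileup of BAP1 peaks was 7.21 on chromosome 8 and 5.74 on all the others together. It was 6.0 on chromosome 16, 5.74 on 7, 5.9 on 9 and 5.74 on 18. The lowest value was 5.74 both at the 268 peaks and at the other BAP1 peaks. Medians of 5.74 thus lie at that floor and do not tell chromosomes apart.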
